A study of Homo sapiens with 9 samples.

Results

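In undifferentiated Caco-2 cells (uCaco-2) treated with either of 2 chemical activators of the HIF-signaling pathway, 10 genes of the TGF-beta and BMP pathways were followed. They are TGFB1, TGFB2, BMP2, BMP4, ID1, ID2, ID3, SMAD6, SMAD7 and GDF15. They were taken by symbol, and all 10 were found among the 60591 symbols of the count table and passed the filter on low counts, which left 15944 symbols for testing. Caco-2 is a human colon adenocarcinoma line that resembles intestinal stem cells while it proliferates, so all libraries come from 1 cancer line. For 24 h the cells received 300 μM Cobalt (II) chloride (CoCl2), 5 μM of the oxyquinoline derivative (OD) 4896-3212, or fresh medium as control. All 3 media contained 0.5% DMSO, and each condition had 3 biological replicates.

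TGF-beta and bone morphogenetic protein (BMP) ligands are secreted dimers that bring type I and type II receptor kinases together. The activated receptors phosphorylate SMAD proteins, which enter the nucleus with SMAD4 and regulate transcription. The ID genes are classical direct targets of the BMP branch, and SMAD6 and SMAD7 are inhibitory SMADs that act as feedback on the receptors. In the gut, BMP signaling restrains the crypt stem cells and favours differentiation, and TGF-beta signaling limits epithelial growth.

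The libraries held 15998136 to 24209427 counts. The TMM scaling factors ran from 1.11 to 1.12 in control libraries and from 1.14 to 1.15 after OD, but from 0.770 to 0.795 after CoCl2, so comparisons with CoCl2 depend on the scaling. Without these factors the median log2 fold change of all tested genes with CoCl2 was -0.55 in place of -0.049, and 23.9% of the called genes were higher in place of 46.0%. The 10 epithelial markers checked (EPCAM, CDH1 and others) summed to 10240 to 13880 CPM (counts scaled by library size and TMM factor) and were all detected, and with CoCl2 LGALS4 was called higher and KRT20, VIL1 and CLDN7 lower. LGALS4 had only 6, 33 and 12 counts with CoCl2 and 9, 5 and 5 in control libraries, which overlap. The 8 fibroblast and stromal markers summed to 22.9 to 26.9 CPM in control cells, 18.4 to 20.8 with CoCl2 and 32.0 to 33.4 with OD, 4 of them never exceeded 3 counts, and POSTN was at 0. The 5 endothelial markers summed to 2.41 to 3.54 CPM, with 2 of them never over 3 counts. The 6 leukocyte markers, 3 of them never over 3 counts, summed to 4.94 to 6.08 CPM in control cells, 5.82 to 5.97 with CoCl2 and 2.98 to 3.46 with OD, where CD14 was called lower (4.74 ± 0.601 CPM in control cells and 2.22 ± 0.313 with OD, SD, n = 3). The part of these differences in the results below was not tested. Of 8 HIF target genes 7 were tested, and 7 were upregulated with CoCl2 and 6 with OD.

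The ID genes and the inhibitory SMADs were chosen for display after their directions were seen. The 250 bases in front of their transcription starts are shown first. They come from the RefSeq promoter table of GRCh38.p14, which listed 9 of the 10 genes, and each is read along the strand of its gene. Capitals mark 2 short motifs on either strand, the SMAD box CAGAC and the HIF core ACGTG or GCGTG.

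ID1, chromosome 20, 31605039 to 31605288, plus strand: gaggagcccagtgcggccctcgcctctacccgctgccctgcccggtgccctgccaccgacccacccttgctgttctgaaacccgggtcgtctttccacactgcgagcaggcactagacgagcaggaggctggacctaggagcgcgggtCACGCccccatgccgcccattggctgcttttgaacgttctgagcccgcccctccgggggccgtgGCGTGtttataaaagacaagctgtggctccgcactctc
ID2, chromosome 2, 8681806 to 8682055, plus strand: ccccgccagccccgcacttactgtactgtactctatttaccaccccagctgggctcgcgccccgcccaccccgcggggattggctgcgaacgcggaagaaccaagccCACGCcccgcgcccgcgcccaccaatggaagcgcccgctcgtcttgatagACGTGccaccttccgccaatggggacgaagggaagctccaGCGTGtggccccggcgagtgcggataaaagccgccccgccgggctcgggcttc
ID3, chromosome 1, 23559502 to 23559751, minus strand: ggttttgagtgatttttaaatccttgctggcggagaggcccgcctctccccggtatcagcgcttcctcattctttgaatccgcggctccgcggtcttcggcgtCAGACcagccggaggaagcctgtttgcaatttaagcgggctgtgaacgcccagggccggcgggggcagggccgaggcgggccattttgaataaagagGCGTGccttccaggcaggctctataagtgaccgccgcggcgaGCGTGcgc
SMAD6, chromosome 15, 66701986 to 66702235, plus strand: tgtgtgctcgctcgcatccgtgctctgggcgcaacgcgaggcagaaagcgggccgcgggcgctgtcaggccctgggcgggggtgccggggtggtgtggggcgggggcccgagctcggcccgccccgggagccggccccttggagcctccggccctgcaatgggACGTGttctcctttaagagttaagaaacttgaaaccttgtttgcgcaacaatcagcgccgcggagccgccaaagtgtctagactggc
SMAD7, chromosome 18, 48950966 to 48951215, minus strand: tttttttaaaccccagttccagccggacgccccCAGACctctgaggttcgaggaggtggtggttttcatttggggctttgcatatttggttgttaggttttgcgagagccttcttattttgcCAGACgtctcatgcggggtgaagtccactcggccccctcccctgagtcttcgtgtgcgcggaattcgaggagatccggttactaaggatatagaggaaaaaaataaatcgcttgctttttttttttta

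The SMAD7 window held 2 SMAD boxes and no HIF core, and the SMAD6 window held 1 HIF core and no SMAD box of the letters CAGAC. Other forms of SMAD site were not searched, among them the palindrome GTCTAGAC, which is present near the end of the SMAD6 window. ID1 and ID2 had 2 and 3 HIF cores and no SMAD box, and ID3 had 2 HIF cores and 1 SMAD box. These letters are common, since 37.8% of 27305 promoter windows of the same length held a SMAD box and 43.1% a HIF core, and among 10907 windows of tested genes the shares were 36.2% and 56.6%. The GC-rich SMAD element GGCGCC, held by 16.1% of the windows, was in none of these 5. Of the other listed windows, TGFB2 held 2 SMAD boxes and 3 HIF core matches, and TGFB1 held 1 HIF core and no SMAD box. The TGFB2 matches at 49 and 48 bases before the start overlap, as the palindrome CACGTG read on both strands. BMP4 and GDF15 held 1 SMAD box each and no HIF core, and BMP4 also held 1 GGCGCC. The BMP4 window belongs to a start 1775 bases from that of its main annotated transcript and lies inside the gene. All other listed windows were at the main start. The relation of these motifs to the direction of change was not tested. The SMAD6 and SMAD7 windows also differed in base composition, with 68% and 48% G or C. A match of a few bases is a description of the window and not a binding site.

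In uCaco-2, CoCl2 changed 5 of the 10 genes, of which GDF15 and SMAD7 were upregulated and TGFB2, BMP4 and SMAD6 downregulated, and OD changed 3, with TGFB1 and GDF15 upregulated and BMP4 downregulated. A gene was called where edgeR's quasi-likelihood test over all 9 libraries gave an adjusted p under 0.05 and the log2 fold change lay beyond 1 in either direction. Of all tested genes, 43.2% were called with CoCl2, 19.9% higher and 23.4% lower, and 13.3% were called with OD, 9.09% higher and 4.16% lower. Without the threshold on the fold change, 9 of the 10 genes differed from control with each treatment, against 83.2% of all genes with CoCl2 and 65.6% with OD. The libraries of treated and control cells did not overlap for any of the 10 genes in either comparison, which also held for 83.4% of all genes with CoCl2 and 68% with OD. In bulk RNA, fewer cells that express a gene and less RNA per cell cannot be told apart. Both treatments were compared with the same control libraries. The median log2 fold change of the 10 genes was -0.19 with CoCl2 and 0.35 with OD, where all tested genes had -0.049 and -0.011.

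**Figure D1:**
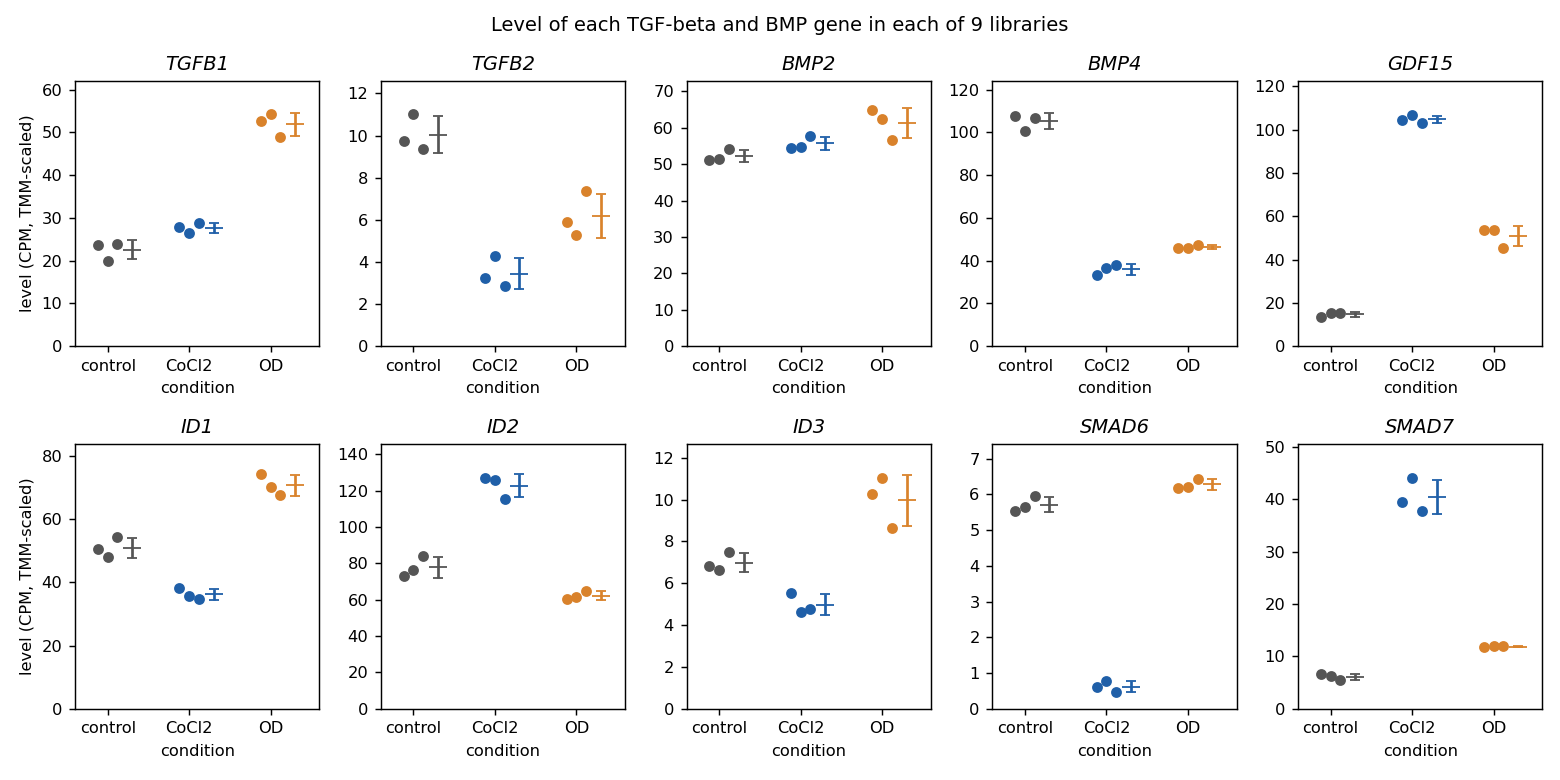
Level of the 10 genes on the vertical axis, in CPM scaled by the TMM factors and starting at 0, by condition on the horizontal axis. Points are single libraries, and the bar beside them is the mean with its SD (n = 3). GDF15 and SMAD7 were highest and SMAD6 lowest with CoCl2, and TGFB1 and ID1 were highest with OD.

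Among the ligands, GDF15 rose most. GDF15 is a distant member of the TGF-beta superfamily, a secreted cytokine of the stress response that signals through the receptor GFRAL in the hindbrain and not through SMADs in the cells that make it. It lies on the plus strand of chromosome 19 (18374731 to 18389176 on GRCh38). Its levels in control cells were 13.3, 15.4 and 15.3 CPM. With CoCl2 they were 104, 107 and 103 CPM and with OD 53.5, 53.5 and 45.4 CPM, so that the 3 conditions did not overlap. Mean levels were 14.7 ± 1.16 CPM in control cells, 105 ± 1.77 CPM after CoCl2 and 50.8 ± 4.65 CPM after OD (SD, n = 3 each). On the log2 scale the rise was 2.83 with CoCl2 (standard error, SE, 0.066; adjusted p = 1.78e-45) and 1.79 with OD (SE 0.069, adjusted p = 1.15e-32). CoCl2 exceeded OD by 1.04 (95% confidence interval 0.93 to 1.15, adjusted p = 1.75e-26), close to the threshold on the fold change. Scaled by library size alone, this difference shrank to 0.49, where GDF15 was no longer called between the treatments.

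BMP4 was the ligand called lower with both treatments. It encodes a BMP of the intestinal mesenchyme in normal gut. Among TGFB1, TGFB2, BMP2 and BMP4 alone, it was the most abundant per length in control cells. BMP7 was not part of that comparison. In control cells BMP7 had a mean of 209 CPM over 5425 exonic bases, and BMP4 had 105 CPM over 3096. The BMP4 libraries had 108, 101 and 107 CPM in control cells. They had 33.2, 36.5 and 37.9 CPM with CoCl2 and 45.7, 45.8 and 47.2 CPM with OD. All treated libraries lay below all control libraries, and those with CoCl2 below those with OD. The fitted log2 change was -1.55 with CoCl2 (SE 0.056, adjusted p = 2.89e-35) and -1.19 with OD (SE 0.052, adjusted p = 9.45e-30) by the same test. The direct difference of CoCl2 from OD was -0.36 (95% confidence interval -0.48 to -0.25, adjusted p = 1.14e-07), which is under the fold change threshold. The gene is on the minus strand of chromosome 14 (53949736 to 53958761), and a noncoding gene on the opposite strand covers 16.3% of its exonic bases.

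BMP2, the close relative of BMP4, was not called in any comparison. It was measured at 51.3, 51.3 and 54.2 CPM in control cells, 54.5, 54.8 and 57.9 CPM with CoCl2 and 64.9, 62.4 and 56.7 CPM with OD. With CoCl2 its log2 fold change of 0.095 did not pass the test (95% confidence interval -0.018 to 0.21, adjusted p = 0.114 by edgeR), and the sign turned to -0.41 with library size alone and to -0.0052 with upper-quartile factors. With OD it was 0.23 (95% confidence interval 0.12 to 0.34, adjusted p = 0.00016). The ratio of BMP2 to BMP4, taken within each library from counts per kb of exon and so free of any scaling between libraries, was 0.415 to 0.445 in control cells, 1.31 to 1.43 with CoCl2 and 1.05 to 1.24 with OD. Per length BMP4 was thus the more abundant one in every control library, and BMP2 in every treated library. An exact permutation test of 3 libraries against 3 cannot give a p below 0.1, and ratios within libraries are therefore given as values.

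TGFB1 and TGFB2 encode TGF-beta isoforms that bind the same receptor complex, and they moved apart with OD. TGFB1 on chromosome 19 (minus strand, 41301587 to 41353922) had 23.7, 20.0 and 24.0 CPM in control cells, 27.9, 26.5 and 28.8 CPM with CoCl2 and 52.7, 54.2 and 49.0 CPM with OD. The OD libraries stood far above the other 6. Its log2 fold change was 1.21 with OD (SE 0.065, adjusted p = 1.99e-25) and 0.31 with CoCl2 (SE 0.072, adjusted p = 0.000124), and the latter turned to -0.20 with library size alone. CoCl2 lay below OD by 0.90 on the log2 scale (95% confidence interval -1.03 to -0.78, adjusted p = 3.49e-20 by edgeR). Of the exonic bases of TGFB1, 6.59% are shared with HNRNPUL1 on the opposite strand, which had 3979 to 6180 counts.

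TGFB2 on chromosome 1 (plus strand, 218345336 to 218444619) went down instead. Its libraries had 9.74, 11.03 and 9.37 CPM in control cells, 3.24, 4.26 and 2.83 CPM with CoCl2 and 5.90, 5.28 and 7.35 CPM with OD. The conditions did not overlap, with CoCl2 lowest and OD between. Relative to control the log2 change was -1.58 with CoCl2 (SE 0.138, adjusted p = 2.33e-16) and -0.72 with OD (SE 0.114, adjusted p = 1.4e-07), the latter under the fold change threshold. The difference between the treatments was -0.87 (95% confidence interval -1.16 to -0.57, adjusted p = 4.41e-07). Per kb of exon, TGFB1 exceeded TGFB2 3.36- to 4.75-fold in control cells, 11.5- to 18.8-fold with CoCl2 and 12.4- to 19.0-fold with OD. The annotation assigns 22.7% of the exonic bases of TGFB2 also to TGFB2-OT1, for which 0 counts were listed in every library.

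**Figure D2:**
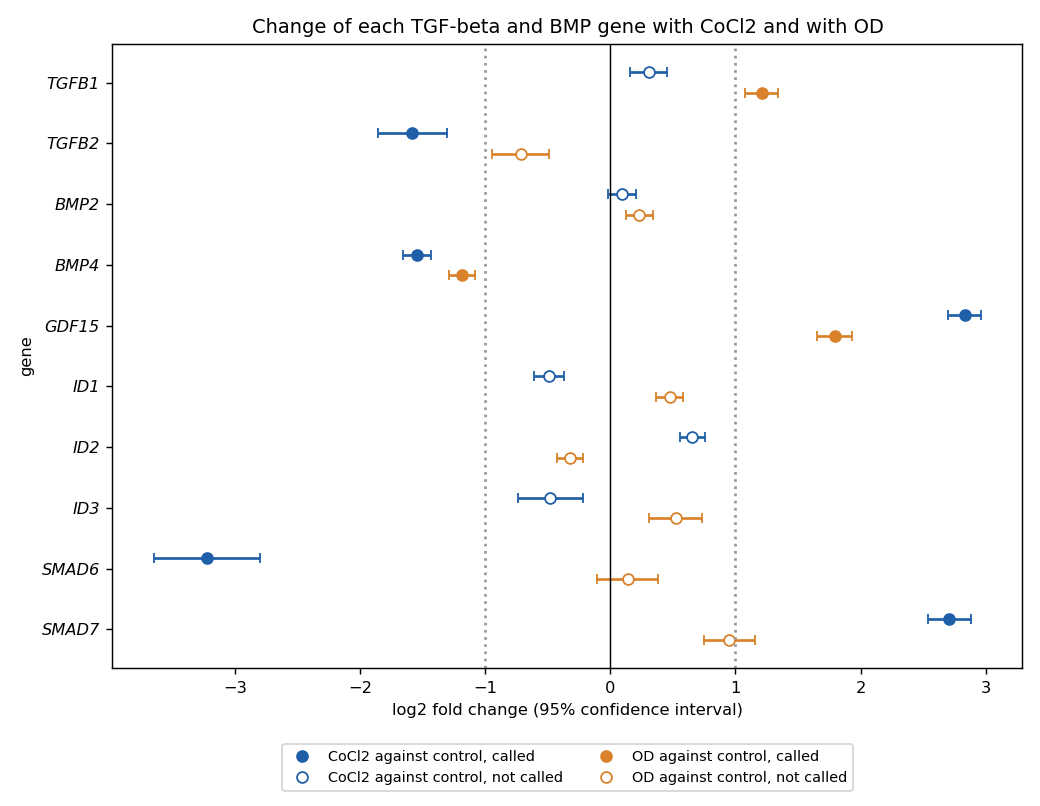
Log2 fold change of each gene against control cells on the horizontal axis, with its 95% confidence interval, for CoCl2 (blue) and OD (orange), with 1 gene per line on the vertical axis. Filled points passed both thresholds, and dotted lines mark a log2 fold change of 1 in either direction. The points of ID1, ID2 and ID3 lie on opposite sides of 0 for the 2 treatments and none is filled, while those of BMP4 and GDF15 lie on the same side and are filled for both.

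The ID genes encode helix-loop-helix proteins without a DNA-binding region, which bind E proteins and keep them off DNA. None of ID1, ID2 and ID3 passed the fold change threshold against control cells with edgeR or DESeq2, but all 3 differed from control with both treatments at an adjusted p under 0.05. With CoCl2, ID1 and ID3 were below and ID2 above control, and with OD, ID1 and ID3 were above and ID2 below it. These directions were the same with RLE factors, upper-quartile factors and library size alone.

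ID1 (chromosome 20, plus strand, 31605283 to 31606515) was measured at 50.7, 48.0 and 54.2 CPM in control cells. It had 38.1, 35.7 and 34.8 CPM with CoCl2 and 74.3, 70.1 and 67.8 CPM with OD. The 3 conditions were fully separate, with control in the middle. The fitted log2 change was -0.49 with CoCl2 (SE 0.060, adjusted p = 5.21e-11 by edgeR) and 0.47 with OD (SE 0.054, adjusted p = 1.3e-11). CoCl2 was below OD by 0.97 on the log2 scale (95% confidence interval -1.08 to -0.85, adjusted p = 1.11e-23), just inside the threshold of 1, and past it at -1.51 with library size alone and -1.10 with upper-quartile factors.

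ID3 (chromosome 1, minus strand, 23557926 to 23559501) had the same order at a lower level. Its libraries held 6.83, 6.62 and 7.52 CPM in control cells, 5.54, 4.64 and 4.77 CPM with CoCl2 and 10.3, 11.01 and 8.63 CPM with OD. Control again lay between the treatments without overlap. Relative to control the log2 change was -0.48 with CoCl2 (SE 0.129, adjusted p = 0.000611) and 0.52 with OD (SE 0.107, adjusted p = 2.01e-05). The difference of CoCl2 from OD, -1.004 (95% confidence interval -1.24 to -0.77, adjusted p = 1.83e-11), sat at the threshold. It was not called in 10 alternatives, among them RLE factors (-0.96), DESeq2 (-0.96) and leaving out any one of CoCl2 replicates 2 and 3 and OD replicates 1 and 2 (-0.99 to -0.93).

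ID2 (chromosome 2, plus strand, 8678845 to 8684461) was the exception within the family. It had 72.9, 76.4 and 84.3 CPM in control cells, 127, 126 and 116 CPM with CoCl2 and 60.2, 61.6 and 65.0 CPM with OD. The CoCl2 libraries were the highest and the OD libraries the lowest. The fitted log2 change was 0.66 with CoCl2 (SE 0.051, adjusted p = 2.47e-18) and -0.32 with OD (SE 0.053, adjusted p = 2.74e-07). CoCl2 exceeded OD by 0.98 (95% confidence interval 0.87 to 1.08, adjusted p = 2.7e-26). With library size alone the value with CoCl2 was 0.15 (adjusted p = 0.00796). ID2-AS1, which shares 6.55% of the exonic bases of ID2 on the opposite strand, was called lower with CoCl2, at -2.35 on the log2 scale (SE 0.174, adjusted p = 1.81e-19), and had a value of 0.064 with OD that did not pass the test (95% confidence interval -0.16 to 0.29, adjusted p = 0.639).

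The makeup of the ID transcripts within a library does not depend on the scaling between libraries. Of the counts per kb of ID1, ID2 and ID3 together, ID1 held 50.0% to 52.3% in control cells, 32.5% to 33.8% with CoCl2 and 61.0% to 63.9% with OD. ID2 held 41.9% to 44.3% in control cells, 62.4% to 64.0% with CoCl2 and 28.9% to 32.6% with OD. ID3 was a small part throughout, with 5.68% to 5.81% in control cells, 3.49% to 4.02% with CoCl2 and 6.40% to 7.99% with OD. No share of ID1, ID2 or ID3 overlapped between any 2 conditions. Per kb of exon, the leading ID gene was thus ID1 in control and OD-treated cells and ID2 in CoCl2-treated cells. The lead of ID1 in control cells depends on the exon lengths used, 1233 bases for ID1 and 2213 for ID2. Before division by length, the control libraries held 942, 980 and 967 counts of ID1 and 1354, 1559 and 1503 of ID2.

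**Figure D3:**
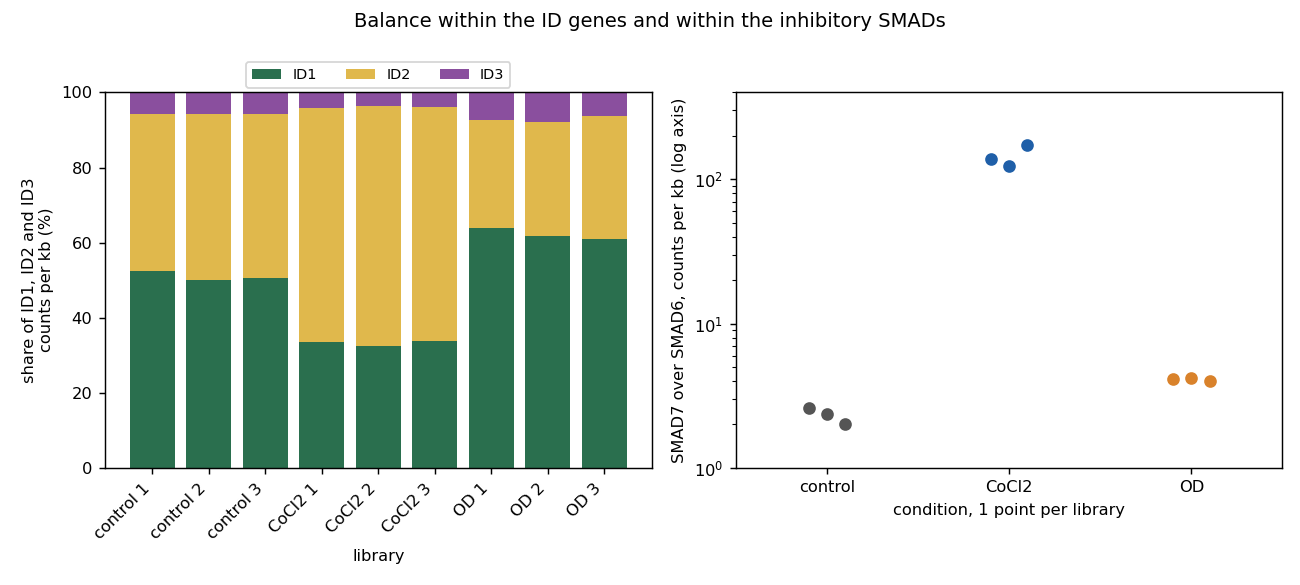
Left, share of ID1, ID2 and ID3 in their summed counts per kb of exon (vertical axis, in %), with 1 bar per library. Right, ratio of SMAD7 to SMAD6 in counts per kb on a log axis, with 1 point per library. ID2 takes 62.4% to 64.0% with CoCl2, and the SMAD7 to SMAD6 ratio is 124 to 174 with CoCl2 against 2.02 to 4.18 in the other 6 libraries.

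SMAD6 and SMAD7 went in opposite directions with CoCl2. SMAD6 acts mainly on the BMP branch, while SMAD7 blocks both TGF-beta and BMP receptors and recruits the ubiquitin ligases SMURF1 and SMURF2 to them. SMAD7 (chromosome 18, minus strand, 48919853 to 48950965) had 6.67, 6.18 and 5.55 CPM in control cells, 39.4, 44.1 and 37.8 CPM with CoCl2 and 11.7, 11.98 and 11.9 CPM with OD. The 3 conditions were ordered control, OD, CoCl2 without overlap. Relative to control the log2 change was 2.71 with CoCl2 (SE 0.087, adjusted p = 8.13e-38 by edgeR), which is a 6.55-fold rise. With OD it was 0.95 (95% confidence interval 0.75 to 1.15, adjusted p = 1.42e-12), below the threshold of 1, and without control replicate 1 it was 1.03 and called.

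SMAD6 (chromosome 15, plus strand, 66702236 to 66782849) had 103, 115 and 106 counts in the control libraries, 10, 10 and 9 with CoCl2 and 136, 140 and 121 with OD. In CPM these were 5.54, 5.64 and 5.95, then 0.622, 0.774 and 0.472, and 6.18, 6.21 and 6.44. The log2 fold change with CoCl2 was -3.23 (SE 0.213, 95% confidence interval -3.65 to -2.80, adjusted p = 9.79e-22), so that 10.7% of the control level was left. It lay between -3.73 and -3.03 in all alternatives that tested it. With OD the value of 0.14 did not pass the test (95% confidence interval -0.10 to 0.38, adjusted p = 0.322). Between the treatments SMAD6 differed by -3.36 (SE 0.206, adjusted p = 3.06e-23) and SMAD7 by 1.76 (SE 0.076, adjusted p = 5.8e-31). Within libraries, SMAD7 exceeded SMAD6 per kb 2.02- to 2.61-fold in control cells, 4.01- to 4.18-fold with OD and 124- to 174-fold with CoCl2. Only 9 or 10 counts stand behind each SMAD6 value with CoCl2, which widens its error against that of BMP4 or ID2.

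In the direct comparison of the treatments, 4 of the 10 genes were called, with GDF15 and SMAD7 higher and ID3 and SMAD6 lower with CoCl2 than with OD, against 41.3% of all tested genes. All 10 had an adjusted p under 0.05, as did 83.5% of all genes. With RLE factors ID2 was called higher and ID3 no longer lower, and with library size alone 1 gene was higher and 5 lower. The log2 difference of BMP2 was -0.14 (95% confidence interval -0.25 to -0.027, adjusted p = 0.0192), and BMP2 was the only one of the 10 whose CoCl2 and OD libraries overlapped. Libraries without overlap were thus found for 9 of the 10 genes, against 83.8% of all tested genes.

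The order of the 10 genes by level, in CPM per kb of exon, also changed. In control cells ID1 led with 41.4 ± 2.52 (SD, n = 3), followed by ID2 at 35.2 ± 2.65 and BMP4 at 33.96 ± 1.22, whose libraries overlapped. Next came BMP2 at 14.8 ± 0.479, then GDF15 at 7.03 ± 0.557 and TGFB1 at 6.91 ± 0.681, which overlapped, and ID3 at 4.67 ± 0.314. TGFB2 at 1.66 ± 0.144 and SMAD7 at 1.55 ± 0.142 overlapped, and SMAD6 was last at 0.667 ± 0.0247. With CoCl2, ID2 led at 55.5 ± 2.86 and GDF15 followed at 50.2 ± 0.849, ahead of ID1 at 29.4 ± 1.40, while SMAD6 was at 0.0728 ± 0.0176. In that condition only the neighbours BMP4 (11.6 ± 0.772) and SMAD7 (10.3 ± 0.829) overlapped. With OD, ID1 led at 57.4 ± 2.67, ahead of ID2 at 28.1 ± 1.12 and GDF15 at 24.3 ± 2.23. BMP2, TGFB1 and BMP4 followed at 17.3 ± 1.19, 15.9 ± 0.826 and 14.9 ± 0.282, and each overlapped its neighbour.

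Around these genes, 131 others of the pathway were listed by role, of which 96 passed the filter on low counts. With CoCl2, 29 of the 96 were called higher and 16 lower, and with OD 20 were higher and 1 was lower, which makes 46.9% and 21.9% called against 43.2% and 13.3% of all tested genes. Between the treatments 24 were higher and 24 lower with CoCl2, 50.0% against 41.3%. The median log2 fold change of the 96 was 0.23 with CoCl2 and 0.35 with OD, where all tested genes had -0.049 and -0.011. The split with CoCl2 turned to 18 higher and 25 lower with library size as the only scaling, and that between the treatments to 11 higher and 36 lower.

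The other ligands had medians of opposite sign with CoCl2 and OD, -0.99 and 0.65 for the TGF-beta and activin ligands and -0.95 and 0.89 for the BMP ligands. The medians of all tested genes were -0.049 and -0.0105. Of 8 tested TGF-beta and activin ligands, 1 was called higher and 4 lower with CoCl2, and 2 were higher with OD (INHA and INHBE). That is 62.5% and 25.0% called, against 43.2% and 13.3% of all tested genes. Of 5 tested BMP ligands, 2 were lower with CoCl2 and 2 higher with OD, and all 5 were lower with CoCl2 than with OD. That is 40.0% called with each treatment, under the share of all genes with CoCl2. Between the treatments 23.8% of all tested genes were called lower with CoCl2. BMP7 had 211, 199 and 215 CPM in control cells, 35.2, 33.0 and 36.5 CPM with CoCl2 and 190, 189 and 196 CPM with OD, a log2 fold change of -2.57 with CoCl2 (SE 0.051, adjusted p = 2.74e-49). BMP6, a BMP known from hepatic iron sensing, had 4.04, 4.41 and 2.75 CPM in control cells, 2.80, 2.40 and 1.57 CPM with CoCl2 and 24.2, 25.3 and 21.8 CPM with OD, a rise of 2.66 with OD (SE 0.112, adjusted p = 7.33e-29). BMP8A rose by 1.94 and INHA, the inhibin alpha subunit, by 2.63 with OD, the latter from 8 to 12 counts to 62 to 90. INHA passed the filter on low counts only through the OD libraries where it was high. INHBB, an activin subunit, differed by -2.86 between the treatments, from 46.3 to 51.5 CPM with OD to 6.28 to 7.24 CPM with CoCl2. GDF9 was the ligand of these lists that was higher with CoCl2, by 4.125 on the log2 scale, with 102 to 120 counts against 4 to 11 in control cells. It overlaps UQCRQ (opposite strand, 747 to 1523 counts) over 6.33% of its exonic bases.

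As background for the receptors, co-receptors and receptor SMADs, 43.2% of all tested genes were called with CoCl2 and 13.3% with OD. With OD, 65.6% of all tested genes had an adjusted p under 0.05 in either direction. Of 10 tested type I and type II receptors, 1 was higher and 1 lower with CoCl2 and none was called with OD by edgeR or DESeq2. With OD 5 of the 10 had an adjusted p under 0.05, all higher, which is below the share of all genes. With library size alone none was higher and 2 were lower with CoCl2. ACVR2A, an activin type II receptor, changed by 1.17 on the log2 scale with CoCl2, and ACVR1C, the receptor ALK7, by -1.94, from 19 to 32 counts to 4 to 6. The TGF-beta receptors TGFBR1 and TGFBR2 had values of 0.23 and -0.050 with CoCl2 and 0.78 and 0.087 with OD. Of 6 receptor SMADs and SMAD4, SMAD1 was lower with CoCl2 with a log2 fold change of -1.10, and SMAD9 was higher with OD at 1.51, from 3 to 7 counts to 13 to 16. With CoCl2 SMAD9 also had 3 to 7 counts, so it passed the filter only through the OD libraries where it was high. SMAD4, the common partner, had values of 0.63 with CoCl2 and 0.36 with OD. Of 3 tested co-receptors RGMA was called higher with CoCl2 and none with OD by edgeR or DESeq2, where 2 had an adjusted p under 0.05 in the higher and 1 in the lower direction. GFRAL, the receptor of GDF15, had at most 1 count in any library.

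Of 16 intracellular inhibitors, 10 were called higher and 1 lower with CoCl2, where 19.9% of all tested genes were higher and 23.4% lower, and their median log2 fold change was 1.17. With OD 2 were called, both higher, against 9.09% of all tested genes, around a median of 0.29. The ubiquitin ligases SMURF1 and SMURF2 rose by 1.98 and 1.58 with CoCl2 on the log2 scale, and the SMAD co-repressor SKIL by 1.99. TOB1, an antiproliferative protein, rose with both treatments, by 2.72 and 1.16, and so did the TGF-beta target PMEPA1, by 1.65 and 1.04. TGIF2 was the gene that was lower with CoCl2, at -1.90. LDLRAD4, among those called higher with CoCl2, had 0 to 2 counts in control cells, 2 with OD and 22 to 28 with CoCl2. It passed the filter on low counts only through the CoCl2 libraries where it was high. With library size alone 6 of the 16 were called higher with CoCl2 around a median of 0.67. Of 7 tested extracellular antagonists, CHRD, NBL1 and SOSTDC1 were lower with CoCl2, while CHRD, NBL1 and FSTL3 were higher with OD. SOSTDC1, an antagonist of BMP and Wnt ligands, had 76 to 78 counts in control cells, 4 to 19 with CoCl2 and 139 to 187 with OD.

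Among 13 tested genes of latency and activation, which hold TGF-beta in the matrix or release it, 3 were higher and 2 lower with CoCl2 and 1 was higher with OD. That is 38.5% and 7.69% called, below the 43.2% and 13.3% of all tested genes. LTBP1, a latent TGF-beta binding protein, had 107, 105 and 99.4 CPM in control cells and 25.7, 27.9 and 27.0 CPM with CoCl2, a log2 fold change of -1.96 (SE 0.057, adjusted p = 2.74e-40), and 110, 109 and 105 CPM with OD. THBS1, which can activate latent TGF-beta, had log2 fold changes of 1.40 with CoCl2 and -0.65 with OD. ITGB6, part of the TGF-beta activating integrin of epithelium, rose with both, by 1.54 and 1.68.

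Of 19 tested further target genes, 10 were higher with CoCl2 and none was lower by edgeR or DESeq2. The share called was thus 52.6%, beside a background of 43.2% (19.9% up and 23.4% down). Another 5 had an adjusted p under 0.05 in the lower direction, a level reached in either direction by 83.2% of the background. Scaled by library size alone, 7 were higher and 2 lower. With OD 8 were higher and 1 lower, against 9.09% and 4.16% of all tested genes. CCN2, which encodes connective tissue growth factor, had 6.19, 7.16 and 5.16 CPM in control cells, 505, 480 and 431 CPM with CoCl2 and 7.72, 7.01 and 7.99 CPM with OD. Its log2 fold change was 6.25 with CoCl2 (SE 0.072, adjusted p = 5.7e-52) and 0.28 with OD (adjusted p = 0.0276). SNAI1, a repressor of E-cadherin, rose with both treatments, by 3.86 with CoCl2 and 1.22 with OD, from 7.60 to 10.4 CPM in control cells to 116 to 133 and 19.1 to 20.3 CPM. HEY1 rose by 3.73 with CoCl2 from 2 to 6 counts to 34 to 55, and it passed the filter on low counts only through these CoCl2 libraries. ANGPTL4, called higher with both treatments, had 1 to 2 counts in control cells, 5 to 14 with CoCl2 and 33 to 43 with OD. It passed the filter only through the OD libraries. DLX3, a homeobox factor downstream of BMP, had 29 to 32 counts in control cells, 21 to 25 with CoCl2 and 120 to 156 with OD, a log2 fold change of 2.01 with OD. TAGLN, an actin-binding protein, was the gene that was lower with OD, at -1.21, and another gene on its strand covers 38.1% of its exonic bases, PCSK7 on the opposite strand 34.1%. ID4, the fourth ID gene, had 0 counts in all 9 libraries, which allows up to 3 counts per library.

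The E proteins that ID proteins bind, TCF3, TCF4 and TCF12, all had lower levels with both treatments at an adjusted p under 0.05. In either direction, 83.2% of all tested genes reached this with CoCl2 and 65.6% with OD. TCF4 had 92.2, 101 and 94.9 CPM in control cells, 23.5, 27.2 and 24.7 CPM with CoCl2 and 56.2, 58.7 and 54.1 CPM with OD. The log2 fold changes of TCF4, TCF3 and TCF12 were -1.94, -1.39 and -0.71 with CoCl2, of which TCF12 was not called, and -0.77, -0.34 and -0.31 with OD. Of 6 factors known to induce GDF15, 3 were called higher with CoCl2 and 1 with OD. That is 50.0% and 16.7%, where 19.9% and 9.09% of all tested genes were called higher. Their part in the rise of GDF15 was not tested. ATF3 rose by 2.46 with CoCl2 and 1.90 with OD, DDIT3 had values of 1.47 and 0.78, ATF4 of 0.88 and 0.52 and NFE2L2 of 1.57 and 0.37. EGR1 had values of 0.72 and -0.84. Of the exonic bases of DDIT3, 27.2% are shared with MARS1 on the opposite strand.

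**Figure D4:**
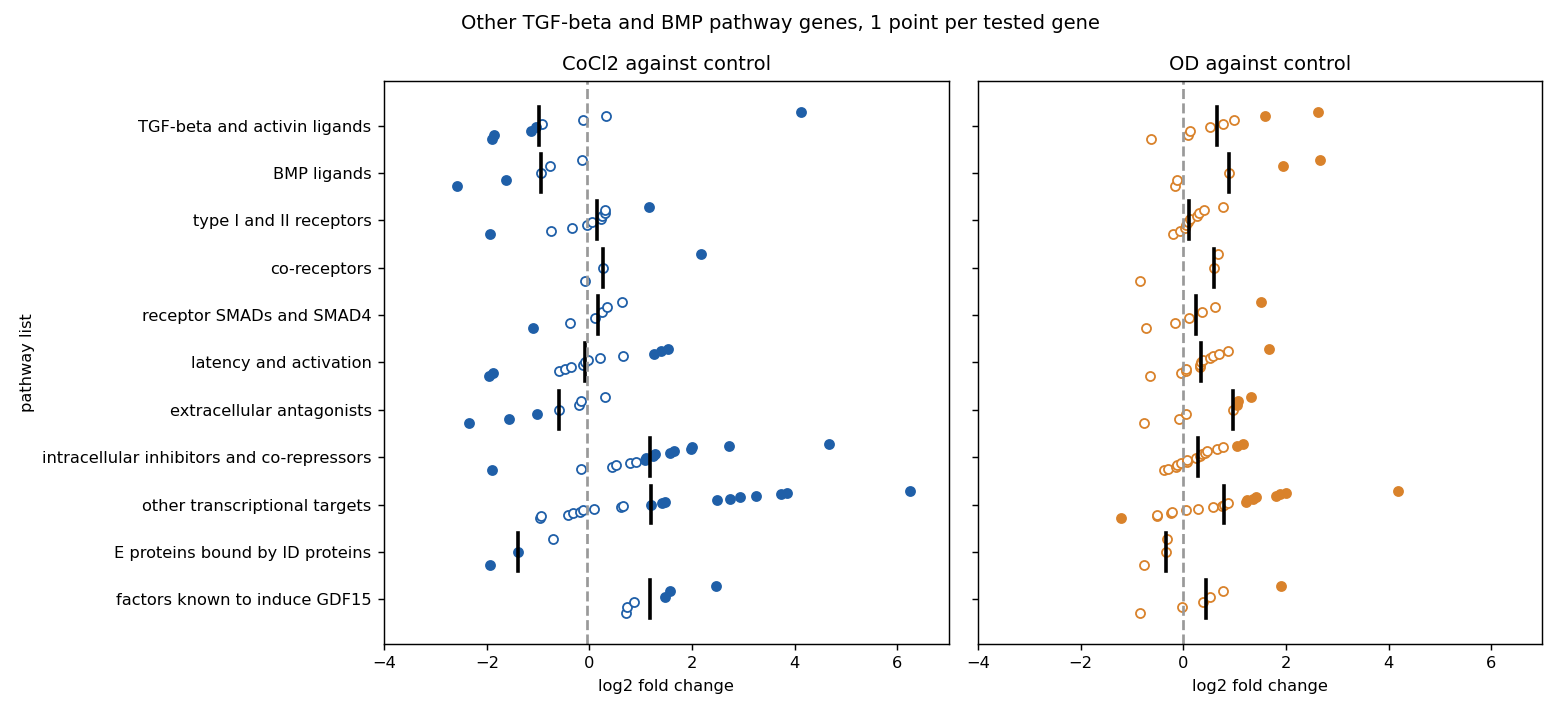
Log2 fold change against control cells on the horizontal axis for the 96 tested pathway genes, grouped by role on the vertical axis, for CoCl2 (left) and OD (right). Each point is 1 gene and filled points passed both thresholds, black bars are list medians, and the dashed line is the median of all tested genes. With CoCl2 the median was 1.17 for the intracellular inhibitors and -0.95 for the BMP ligands, and with OD it was 0.29 and 0.89.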

How the data were processed

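Stranded mRNA libraries of 9 uCaco-2 samples were sequenced from 1 end. Before depositing raw counts per gene symbol, the authors removed adapters (cutadapt 2.10) and aligned to GRCh38.p13 (STAR 2.7.5b) with GENCODE genes. The counting tool and its strand setting are not given in the sources used here, so reads of overlapping genes on opposite strands may not be told apart. Groups and replicate numbers follow the library labels. All 9 columns were used, and replicates of each condition differed beyond sampling noise (chi-square per degree of freedom 1.81 to 3.22).

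Here the counts were normalised (TMM), filtered by condition and fitted in edgeR 4.0.16 under R 4.3.3 with a robust quasi-likelihood model with 1 mean per condition, with Benjamini-Hochberg adjustment over 15944 genes. The standard error is the log2 fold change divided by the root of the F statistic. CPM include the TMM scaling. Depth was 15998136 to 24209427 counts per library. Exon lengths and positions came from GENCODE release 44 on GRCh38. The length of a gene is that of all its annotated exons merged, and ranks and ratios between genes depend on this choice. The fit was tested on simulated counts.

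The 10 genes, the lists and the alternatives were chosen with earlier results of these data known. The pathway genes named are the 4 highest and 4 lowest called genes of each comparison averaging 1 CPM or more and with libraries that do not overlap between the conditions, and the called receptors, receptor SMADs, E proteins and GDF15 factors. Genes named beyond that rule (TGFBR1, TGFBR2, SMAD4, TCF12, ATF4, EGR1, ID4, GFRAL, TOB1, PMEPA1, SKIL, SMURF1, SMURF2, TGIF2, LDLRAD4, THBS1, ITGB6, RGMA, CHRD, NBL1, FSTL3, ANGPTL4 and INHBE) were chosen after their values were seen. Alternatives were library size alone, upper-quartile or RLE factors, no filter, at least 10 counts in every library, DESeq2 1.42.0 on 9 or 6 libraries, edgeR on 6 libraries, a replicate block, each library left out, glmTreat, and the adjusted p alone.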

Additional observations from a re-analysis of the deposited data

How the results depend on the processing

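Of the 3 counts of called genes among the 10, that with CoCl2 was 5 in every alternative with both thresholds except at least 10 counts in every library, which drops SMAD6 and gave 4, and that with OD was 3, or 4 without control replicate 1. Between the treatments it was 3 to 5 when 1 library was left out, 2 with glmTreat (SMAD6 and SMAD7) and 6 with library size alone. Without the fold change threshold the counts were 9, 9 and 10 for CoCl2, OD and their difference, those of the other pathway genes were 80, 72 and 85, and those of all genes were 13260, 10466 and 13311. With OD, all genes gave 1134 calls with at least 10 counts in every library and 965 with glmTreat, against 2113. Single directions turned in 3 cases, all with CoCl2 against control, BMP2 with upper-quartile factors (-0.0052) and library size (-0.41) and TGFB1 with library size (-0.20), where library size alone put the median of all genes at -0.55 in place of -0.049. Between the treatments, library size left 18.3% of the called genes higher with CoCl2 in place of 42.4%. GDF15 was below the threshold there with upper-quartile factors (0.91), no filter (0.97), at least 10 counts (0.99) and without OD replicate 3 (0.97). With the replicate number as a block, 3 of the 10 genes were called between the treatments in place of 4 (ID3 at -0.9958), and all genes gave 6901, 2115 and 6568 calls. No sign of pairing by number was seen in the deviations from the condition means. Same-numbered libraries of different conditions correlated at -0.018 to 0.067, and differently numbered ones at -0.069 to 0.062. Of 9 libraries, 4 correlated best with their own number. With 3 libraries per condition, these values cannot exclude a pairing. SMAD6 with CoCl2 rests on 9 or 10 counts per library.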

Other observations

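The genes whose levels over the 9 libraries were most like those of GDF15 were SLC7A11, the cystine transporter, GPRC5A, an orphan receptor, and UBALD2, with Pearson r of 0.999, 0.9987 and 0.998 for log2 CPM. Those most like ID1 were IGFBP4, an insulin-like growth factor binding protein, ARHGEF10L and CACNB3, with r of 0.995, 0.994 and 0.993. The libraries form 3 conditions, so these values describe the order of the condition means, and 1076 and 867 of 9029 genes with at least 10 CPM reached an r of 0.9 with GDF15 and with ID1.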
